A study of Mus musculus with 2 samples.

Results

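Il1r2 Ifitm1 class II cells were 770 of 8813 kept cells in 2 droplet libraries of pancreatic islets, 431 of 4628 in the library labelled HAMSAB and 339 of 4185 in the library labelled HAMS. Both libraries came from NOD mice, an inbred strain whose islets are infiltrated by immune cells before autoimmune diabetes develops. The mice were 5 weeks old at the start and ate their diet for 5 weeks. The abbreviation HAMS stands for maize starch rich in amylose. HAMSAB is its acetylated and butyrylated form, from which gut microbes free acetate and butyrate, both short-chain fatty acids. All mice were of the NOD genotype and all ate a starch diet, so the HAMSAB library is set against the unmodified starch and not against standard chow. The labels do not give the number of mice or their sex. Each diet has 1 library, so no difference between the diets has a replicate check and none was tested. The intervals given are 95% intervals that cover counting error only.

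The cells were chosen by their own counts of unique molecular identifiers (UMIs), each of which stands for 1 captured RNA molecule. Cells were kept with 200 genes or more and no more than 20% of their UMIs from mitochondrial genes. The gate for class II cells asked for hormone UMIs (Ins1, Ins2, Gcg, Sst and Ppy) under 2%, for no UMI of the T cell, B cell, C1q macrophage and plasmacytoid genes Cd3d, Cd3e, Trac, Cd79a, Ms4a1, C1qa, C1qb, C1qc and Siglech, and for at least 3 UMIs of Cd74, H2-Aa and H2-Ab1. This left 1500 HAMSAB and 1003 HAMS cells. Members held at least 2 UMIs, summed over the 7 rule genes Ifitm1, Il1r2, Plbd1, Havcr2, Kit, Adam23 and Tbc1d4, and more than either of the other class sums. One of these counts Xcr1, Clec9a, Rab7b, Bcl2l14, Ly75 and Serpinb6b, which mark Xcr1 cells. The other counts Ptgs2, Tnip3, Plet1, Lilrb4a, Nrp2, Nlrp3 and Ccr1, which mark Ptgs2 Nlrp3 cells. The same gates gave 84 Xcr1 cells, 423 Ptgs2 Nlrp3 cells and 1226 other class II gated cells. All genes named in this paragraph are part of the choice, and their levels in members are a description.

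Dendritic cells take up proteins, cut them into peptides and show these on MHC class II molecules to CD4 T cells. Conventional dendritic cells depend on the receptor Flt3 and express the transcription factor Zbtb46. Those of the Xcr1 lineage (cDC1) are known for presenting antigen to CD8 T cells and those of the Sirpa lineage (cDC2) for presenting it to CD4 T cells. In NOD islets such cells carry islet antigens to T cells. On maturation dendritic cells gain the chemokine receptor Ccr7, which guides them to lymph nodes, and the actin bundler Fscn1.

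Members were shallow cells. Their median depth was 696 UMIs and 348 genes in HAMSAB, and 733 UMIs and 346 genes in HAMS. Values therefore rest on sums over members, 336796 UMIs in HAMSAB and 268728 in HAMS, and a level is given as counts of a gene scaled to the total of the class (CPM, UMIs of the gene in 1000000 UMIs of the class). A 3' library counts molecules, not reads per length, so levels are compared between cells for a gene and not between genes. The libraries share 6 barcodes, and 1 HAMSAB member carries such a barcode.

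Of the rule genes, Tbc1d4, a Rab GTPase-activating protein of glucose transporter traffic, was the most often seen. It had UMIs in 64.0% of HAMSAB members (59.3 to 68.6%) and in 54.9% of HAMS members (49.4 to 60.2%). Il1r2, a decoy receptor that binds interleukin 1 without signalling, was seen in 38.1% of HAMSAB and 39.8% of HAMS members. Ifitm1, an interferon-induced membrane protein that restricts virus entry, was the least often seen, in 16.7% of HAMSAB and 15.9% of HAMS members. Plbd1, a lysosomal phospholipase B-like protein, was seen in 33.2% of HAMSAB and 35.7% of HAMS members, and Havcr2, the checkpoint receptor TIM-3, in 30.2% of HAMSAB and 28.6% of HAMS members. Kit, the receptor of stem cell factor, was seen in 20.4% of HAMSAB and 22.4% of HAMS members, and Adam23, an adhesion protein of the disintegrin family, in 31.6% of HAMSAB and 27.4% of HAMS members. No rule gene had over 9 UMIs in a member. All rule UMIs came from 1 gene in 74 HAMSAB members (17.2%) and 72 HAMS members (21.2%), and 205 (47.6%) and 164 (48.4%) carried 2 of the genes.

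The threshold cuts through a continuous range. The sum of the rule genes had a median of 3 in both libraries, and 159 HAMSAB and 130 HAMS members stood just inside it with a sum of 2. Just outside it were 148 HAMSAB and 114 HAMS gated cells with a sum of 1 that was above both other sums. S100a4, a calcium-binding protein of motile cells that the rule does not use, had 252 CPM in HAMSAB and 192 CPM in HAMS members with a sum of 2, and 165 CPM and 64.4 CPM in the cells with a sum of 1. At sums of 4 or more it reached 513 CPM (403 to 644) in HAMSAB and 527 CPM (397 to 686) in HAMS. Gated cells with none of the 3 sums above 0 had 71.8 CPM in HAMSAB and 97.8 CPM in HAMS. Those cells also held RNA of other cell types, with the ductal gene Clu at 20621 CPM in HAMSAB and 20308 CPM in HAMS and the B cell gene Ighm at 2047 and 190 CPM, against Clu at 20.8 and 28.7 CPM and Ighm at 62.4 and 28.7 CPM at sums of 4 or more. The part of this in the levels by sum was not tested. Cells with higher sums were also deeper, with a median of 759 UMIs in HAMSAB and 793 in HAMS at sums of 4 or more, against 595 and 620 at a sum of 0.

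**Figure D1:**
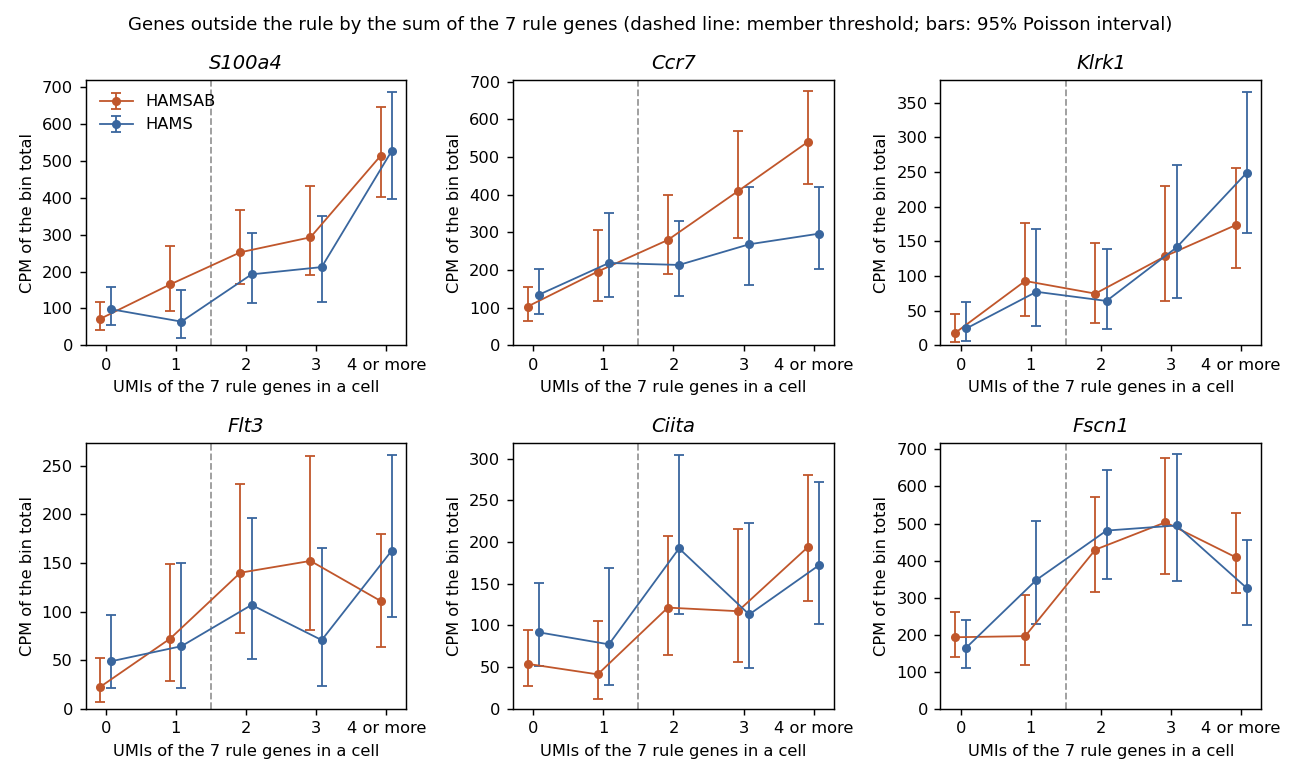
Level of 6 genes outside the rule (CPM of each bin's total, vertical axes from 0) in gated cells with 0, 1, 2, 3 and 4 or more UMIs of the 7 rule genes, with 95% Poisson intervals, for HAMSAB and HAMS. Members lie right of the dashed line, and S100a4 stands at 513 CPM in HAMSAB and 527 CPM in HAMS in the last bin, against 71.8 and 97.8 CPM in the first, whose cells also hold Clu at 20621 and 20308 CPM.

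Other genes outside the rule followed the sum to different degrees. Klrk1, which encodes the activating receptor NKG2D, had 173 CPM in HAMSAB and 249 CPM in HAMS members at sums of 4 or more, against 18.0 and 24.5 CPM at a sum of 0. Ccr7 reached 541 CPM (428 to 675) in HAMSAB and 297 CPM (202 to 421) in HAMS members at sums of 4 or more, so these intervals do not overlap. Fscn1 did not climb within the members, with 409 CPM in HAMSAB and 326 CPM in HAMS at sums of 4 or more, against 429 and 481 CPM at a sum of 2. Actb, the gene with the most UMIs in members, was highest at a sum of 1, with 322523 CPM in HAMSAB and 325238 CPM in HAMS, and had 231562 and 260102 CPM at sums of 4 or more.

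The members were not alike in the genes outside the rule. Dnase1l3, a secreted nuclease, stood at 390 CPM in HAMSAB and 333 CPM in HAMS members that carried Ifitm1, against 1309 and 1321 CPM over all members. In members with Kit it was 1696 CPM in HAMSAB and 1352 CPM in HAMS. S100a4 was highest in members with Ifitm1, at 576 CPM in HAMSAB and 572 CPM in HAMS, and lowest in those with Plbd1, at 286 and 202 CPM. Fscn1 was highest in HAMSAB members with Adam23 (557 CPM) and in HAMS members with Tbc1d4 (563 CPM), and lowest in those with Havcr2 (143 CPM in HAMSAB and 178 CPM in HAMS). Members can carry several rule genes, so these subsets overlap.

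The dendritic cell label was checked on markers that the rule did not use. Flt3 had 44 UMIs in HAMSAB members (131 CPM) and 32 in HAMS members (119 CPM), against 0 UMIs in C1q cells of either library. With every cell thinned to 500 UMIs, Flt3 was seen in 6.01% of HAMSAB members (3.80 to 8.96%, 366 cells) and 6.19% of HAMS members (3.71 to 9.60%, 291 cells). In T cells, which should lack Flt3, the thinned share was 0% in both libraries, with Clopper-Pearson upper bounds of 1.55% in HAMSAB and 2.95% in HAMS. Without thinning, Flt3 was seen in 7.89% of HAMSAB and 7.96% of HAMS members, against 0.383% and 0% of T cells, whose median depth was 1113 and 1340 UMIs. Members thus carried Flt3 above the share in T cells, at a lower depth. The thinned share in B cells was 2.85% in HAMSAB (1.24 to 5.53%) and 2.91% in HAMS (0.605 to 8.28%), and these intervals overlap those of members. Flt3 was also seen in Ptgs2 Nlrp3 cells (5.34 and 2.50% thinned), Xcr1 cells (7.27 and 3.85%) and other class II gated cells (3.06 and 3.65%). Zbtb46 had 28 UMIs in HAMSAB and 30 in HAMS members, the class II transactivator Ciita 51 and 44, and the integrin Itgax, which macrophages also carry, 42 and 42. Ciita was not particular to members either, with thinned shares of 7.65% in HAMSAB and 7.56% in HAMS members and 3.91% and 6.80% in B cells.

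Members could not be placed in either conventional lineage by single usual markers. The 17 cDC2 markers summed to 2447 CPM in HAMSAB and 2073 CPM in HAMS members, against 1383 and 1167 CPM in Xcr1 cells. Ptgs2 Nlrp3 cells had 2509 and 2085 CPM of them, and other class II gated cells 2500 and 2575 CPM. The 12 cDC1 markers, of which the rule uses Xcr1 and Clec9a, summed to 840 and 867 CPM in members. Xcr1 cells had 2739 and 3076 CPM of these. Of the cDC2 markers, Sirpa, an inhibitory receptor, had 25 UMIs in HAMSAB and 18 in HAMS members, while the lectins Cd209a (6 and 0) and Clec10a (1 and 4) were near 0. The lectin Mgl2 had 15 and 7 UMIs. Most of the cDC2 sum in members came from Notch2, a receptor that cDC2 differentiation needs and that other cells also use. Notch2 had 1398 CPM in HAMSAB and 1332 CPM in HAMS members, and was similar in other class II gated cells at 1448 and 1562 CPM. Its part in the difference of the sum from Xcr1 cells was not tested. The cDC1 markers outside the rule were low beside Xcr1 cells. Naaa, a lysosomal amidase, had 17.8 CPM in HAMSAB and 14.9 CPM in HAMS members, against 110 and 133 CPM in Xcr1 cells. Ppt1, a lysosomal thioesterase, had 15 UMIs in HAMSAB and 25 in HAMS members, against 17 and 14 in the far fewer Xcr1 cells.

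Maturation genes were present in a minority of members. Ccr7 had UMIs in 89 HAMSAB members (20.6%, 16.9 to 24.8%) and 53 HAMS members (15.6%, 11.9 to 19.9%). Fscn1 had UMIs in 62 (14.4%) and 55 (16.2%), and 19 HAMSAB and 5 HAMS members carried both genes. Il4i1, a secreted amino acid oxidase of mature dendritic cells, had 30 and 26 UMIs. Ccl22 (10 and 4 UMIs) and Ccl17 (4 and 0), the chemokines of mature dendritic cells, were near 0. Of the 14 markers of mature dendritic cells, 1 was at 0 in both libraries, and their summed level was 1621 CPM in HAMSAB and 1474 CPM in HAMS members. The classes most like members had such levels too, Xcr1 cells 2095 and 1724 CPM and Ptgs2 Nlrp3 cells 1281 and 1824 CPM.

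Many markers of other cells were at 0 in both libraries, but some lists held more UMIs in sum than Flt3 alone. The plasmacytoid list held 178 UMIs in HAMSAB and 112 in HAMS members, the monocyte list 118 and 96, and the macrophage list 95 and 48. Of 12 monocyte markers 7 were at 0 in both libraries, among them Ly6c2, and Ccr2 had 0 UMIs in HAMSAB and 2 in HAMS members. The monocyte sum of 350 CPM in HAMSAB and 357 CPM in HAMS came mostly from Plac8 (71 and 52 UMIs), which other leukocytes share. Of 12 macrophage markers 7 were at 0 in both libraries, among them Adgre1, Mertk and Fcgr1, and Lyz2 stood at 217 CPM in HAMSAB and 89.3 CPM in HAMS members, against 5262 and 4439 CPM in C1q cells. Kit also marks mast cells, but 8 of 10 mast cell markers were at 0 in both libraries, the proteases Cpa3, Mcpt4 and Tpsb2 and the IgE receptor genes Fcer1a and Ms4a2 among them. All 6 basophil markers and 7 of 9 neutrophil markers were at 0 in both libraries. Of 7 NK cell markers 5 were at 0 in both libraries, Ncr1 among them, while Klrk1 had 44 UMIs in HAMSAB and 42 in HAMS members. Of 11 T cell and 10 B cell markers 4 each were at 0 in both libraries, with summed UMIs of 14 in HAMSAB and 2 in HAMS members for the T cell list and 31 and 17 for the B cell list. Of 9 plasmacytoid markers 4 were at 0 in both libraries (178 and 112 UMIs in all), of 9 innate lymphoid markers 4 (70 and 46 UMIs, among them 27 and 24 of the receptor gene Rora) and of 9 endothelial and stromal markers 5 (15 and 6 UMIs). The gate itself sets the C1q genes, Siglech and several T and B cell genes to 0.

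**Figure D2:**
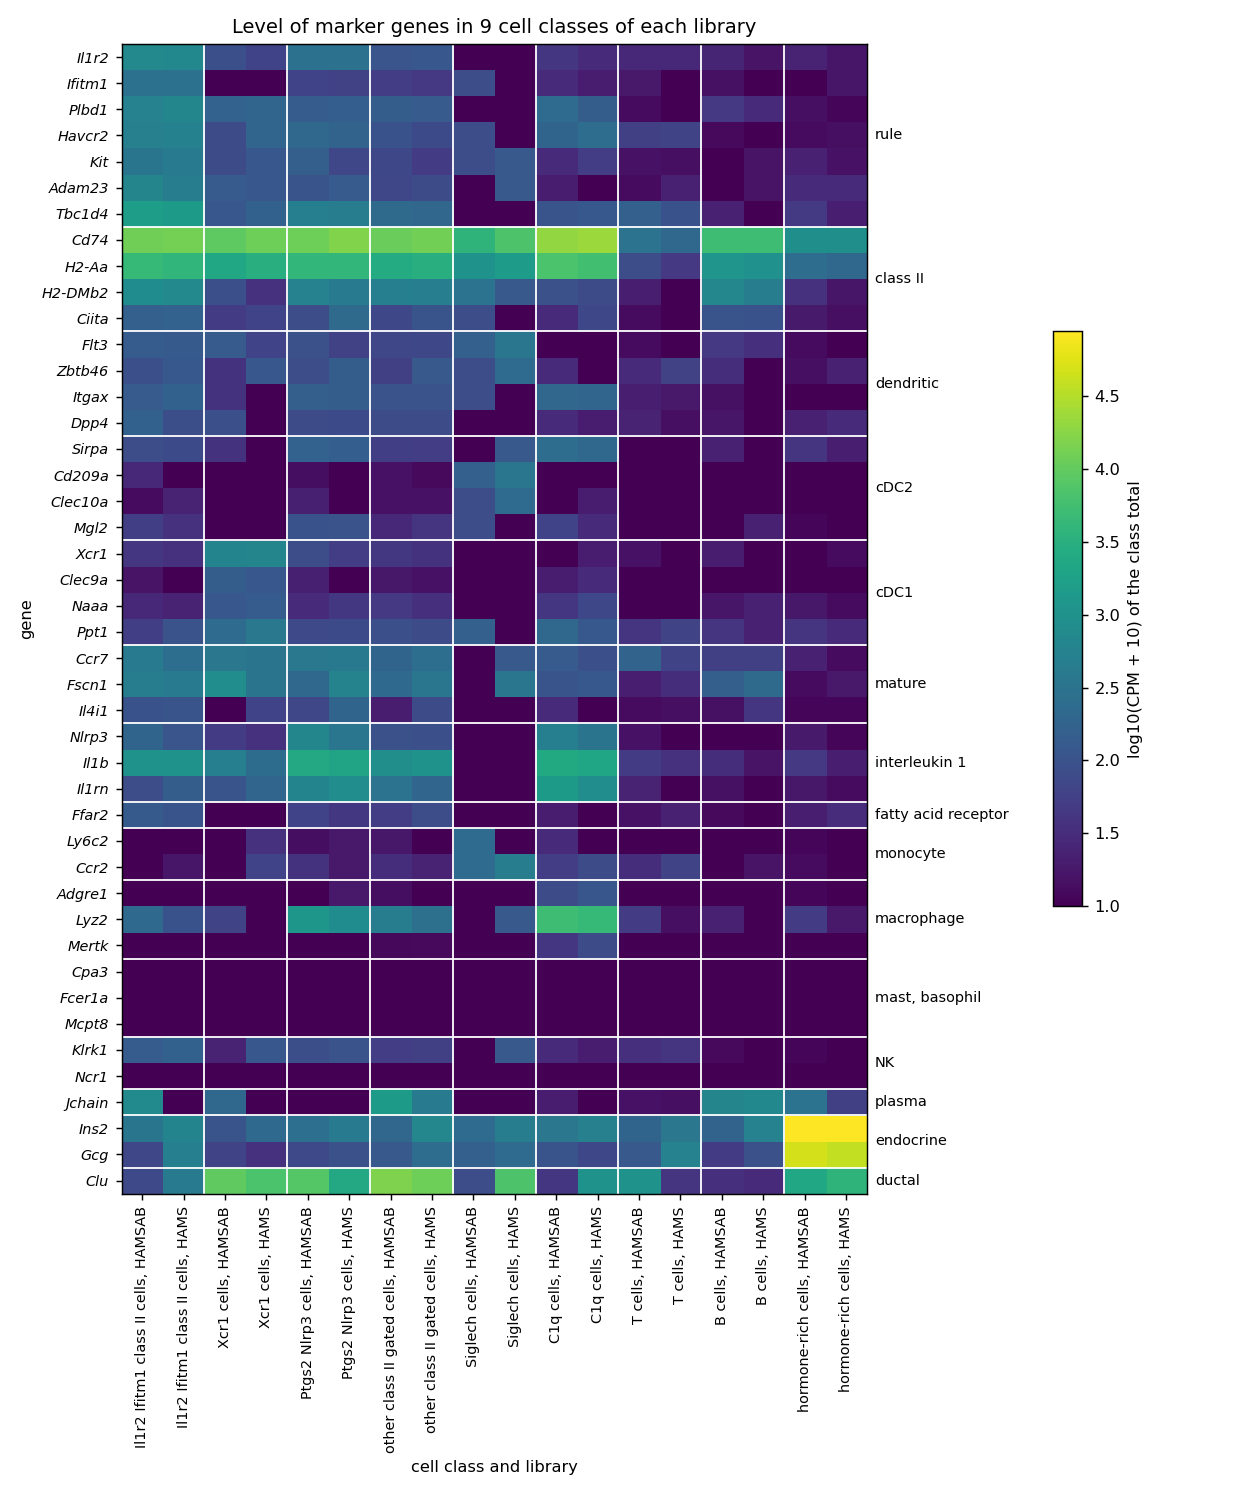
Level of marker genes (rows, log10 of CPM + 10, pseudocount of 10) in 9 cell classes of the HAMSAB and HAMS libraries (columns, HAMSAB left of HAMS in each class). In members Flt3 stands at 131 CPM in HAMSAB and 119 CPM in HAMS, the mast cell protease Cpa3 at 0, and Clu at 65.3 and 428 CPM, against 9435 and 6736 CPM in Xcr1 cells.

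RNA of plasma, ductal and endocrine cells differed between the member libraries. Plasma cell RNA, and ductal RNA in HAMS, sat in few members, while endocrine RNA was spread over more of them. The plasma cell genes Igkc and Jchain held 753 UMIs in HAMSAB members, 746 of them in 3 cells, and 0 in HAMS members. Clu, a chaperone that marks ductal cells, held 22 UMIs in HAMSAB members and 115 in HAMS members, 112 of these in 2 cells. Hormone and secretory granule genes (Chga, Gcg, Ins1, Ins2, Sst and Ppy) held 198 UMIs in HAMSAB members, 24 of them in the 1 cell with 10 or more, and 463 in HAMS members, 255 of them in 7 such cells. Ins2 was seen in 18.6% of HAMSAB and 26.5% of HAMS members, and in 19.2% and 32.3% of T cells, which should lack it. With a limit of 10 UMIs, 5 HAMSAB and 8 HAMS members carried such RNA. No doublet caller was run, and the part of these cells in the diet comparison is given with that comparison, by leaving them out.

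Beside Xcr1 cells of the same library, members were at least 2-fold higher in both libraries for 212 of 1835 genes with at least 50 UMIs (11.6%) and at least 2-fold lower for 42 (2.29%). Actin took a larger part of Xcr1 cells, where the actin and motility genes summed to 392000 CPM in HAMSAB and 412454 CPM in HAMS, against 276933 and 307489 CPM in members. Scaling by the trimmed mean of M-values (TMM) moved all ratios by -0.31 in HAMSAB and -0.18 in HAMS on the log2 scale and gave 134 higher and 66 lower genes. By these shifts H2-DMb1 and Cd74 in HAMS passed from just above to just below 0. No other gene named next changed its side of 0.

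Some genes of class II peptide loading were higher than in Xcr1 cells. H2-DMb2, a chain of the loading chaperone, had 276 UMIs in HAMSAB and 190 in HAMS members (819 and 707 CPM), against 6 and 1 UMIs in Xcr1 cells (82.2 and 26.5 CPM). H2-Ob, a chain of the H2-DM inhibitor H2-O, had 76 and 59 UMIs in members and 1 in Xcr1 cells of each library. H2-DMa had 39 and 27 UMIs in members, against 6 and 0, and H2-DMb1 33 and 31, against 2 and 4. Xcr1 cells hold far fewer UMIs in total, so raw counts overstate the ratios. Scaled to class totals, H2-DMa in HAMSAB and H2-DMb1 in HAMS were less than 2-fold higher in members. The nonclassical class I gene H2-M2, the first by rank, had 119 and 74 UMIs, against 1 and 1. Of 12 class II presentation genes measured beside Xcr1 cells, 4 were at least 2-fold higher in both libraries and 0 lower, and 3 of the 12 (Cd74, H2-Aa and H2-Ab1) are part of the gate. Mndal, of the interferon-inducible p200 family, had 1339 CPM in HAMSAB and 1284 CPM in HAMS members, against 137 and 186 CPM. S100a4 had 126 and 88 UMIs in members, against 1 and 0. The 58 HAMSAB and 26 HAMS Xcr1 cells hold few UMIs, 73023 and 37706, so ratios to genes at 1 to 3 UMIs there are imprecise. They are also deeper than members, with a median of 1212 UMIs in HAMSAB and 1449.5 in HAMS, and among cells with at least 500 genes 57 genes were higher in members.

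Clu had the lowest ratio in HAMSAB among the genes lower than in Xcr1 cells, at 65.3 CPM in HAMSAB and 428 CPM in HAMS members, against 9435 and 6736 CPM in Xcr1 cells. Clu was also high in Ptgs2 Nlrp3 cells (8083 and 2396 CPM) and in other class II gated cells (15156 and 11772 CPM) and near the members' level in C1q cells of HAMSAB (31.6 CPM), against 1014 CPM in C1q cells of HAMS. The 7 ductal markers together summed to 151 CPM in HAMSAB and 510 CPM in HAMS members, against 10326 and 7002 CPM in Xcr1 cells, with 0 markers at 0 in both libraries there, and 9204 and 2480 CPM in Ptgs2 Nlrp3 cells. The part of ductal RNA in the difference of Clu was not tested. Il12b, the p40 chain of interleukin 12 and 23, had 38.6 CPM in HAMSAB and 33.5 CPM in HAMS members, against 534 and 451 CPM in Xcr1 cells, which are known for this cytokine. Dnase1l3 had 1309 and 1321 CPM, against 4834 and 6179 CPM. Cd24a, a surface glycoprotein of cDC1 and B cells, had 261 and 205 CPM, against 739 and 902 CPM. Atxn1, Rgs5, Ncoa7, P2ry14 and Mpeg1 were lower as well, by 2-fold or more in both libraries.

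Beside Ptgs2 Nlrp3 cells, 26 of 2414 genes (1.08%) were at least 2-fold higher in members in both libraries and 51 (2.11%) lower, with 21 and 57 under TMM. With cells thinned to 500 UMIs, 13 genes were higher than in Xcr1 cells and 14 than in Ptgs2 Nlrp3 cells, so the counts do not rank the classes by likeness. Thinning also leaves fewer genes with at least 50 UMIs. The lower genes held chemokines and cytokines of inflammatory myeloid cells. Cxcl2, a neutrophil attractant, had 217 CPM in HAMSAB and 127 CPM in HAMS members, against 2051 and 824 CPM in Ptgs2 Nlrp3 cells. Il1rn, the secreted interleukin 1 receptor antagonist, had 74.2 and 138 CPM, against 586 and 841 CPM. Tnf had 65.3 and 29.8 CPM, against 431 and 286 CPM, and the lysozyme gene Lyz2 217 and 89.3 CPM, against 1193 and 832 CPM. Clec4e, the lectin Mincle, had 4 UMIs in HAMSAB and 1 in HAMS members, against 45 and 21 in Ptgs2 Nlrp3 cells. The transcription factor Zeb2 had 98.0 and 108 CPM, against 435 and 530 CPM. Genes summed for the Ptgs2 Nlrp3 class, Nlrp3 and Ptgs2 among them, are low in members by the rule.

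Among the few genes higher than in Ptgs2 Nlrp3 cells was Ffar2, a G protein-coupled receptor for short-chain fatty acids such as acetate. It had 40 UMIs in HAMSAB members (119 CPM) and 26 in HAMS members (96.8 CPM), against 13 and 4 UMIs in Ptgs2 Nlrp3 cells (51.9 and 33.6 CPM) and 0 and 0 in Xcr1 cells. At 500 UMIs a cell, Ffar2 was seen in 6.01% of HAMSAB members (3.80 to 8.96%) and 4.81% of HAMS members (2.65 to 7.94%). In Ptgs2 Nlrp3 cells these shares were 2.29% (0.844 to 4.92%) and 0.833% (0.0211 to 4.56%), and in hormone-rich cells 0.613% and 1.01%. The intervals of members and Ptgs2 Nlrp3 cells overlap in both libraries. In Xcr1 cells the thinned share was 0%, with upper bounds of 6.49% in HAMSAB and 13.2% in HAMS, which lie above the members' shares. Other class II gated cells had 2.10% (1.05 to 3.73%) in HAMSAB and 2.08% (0.904 to 4.06%) in HAMS. Lta4h, which makes leukotriene B4, had 30 and 25 UMIs in members, against 9 and 4. Sept3, a septin GTPase, had 64 UMIs in HAMSAB and 34 in HAMS members, against 5 and 5 in Ptgs2 Nlrp3 cells. Meg3, a long noncoding RNA, had 41 and 34 UMIs, against 14 and 2.

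Between the diets, members made up 9.31% of HAMSAB kept cells (8.49 to 10.2%) and 8.10% of HAMS kept cells (7.29 to 8.97%), a ratio of 1.15 (0.995 to 1.33). Of the class II gate they were 28.7% in HAMSAB (26.5 to 31.1%) and 33.8% in HAMS (30.9 to 36.8%), a ratio of 0.850. The direction therefore turned with the denominator. Hormone-rich cells, which belong to the first denominator alone, were 14.5% of HAMSAB and 21.1% of HAMS kept cells, and Ptgs2 Nlrp3 cells, which belong to both, were 6.27% and 3.18%. Their part in the member shares was not tested.

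**Figure D3:**
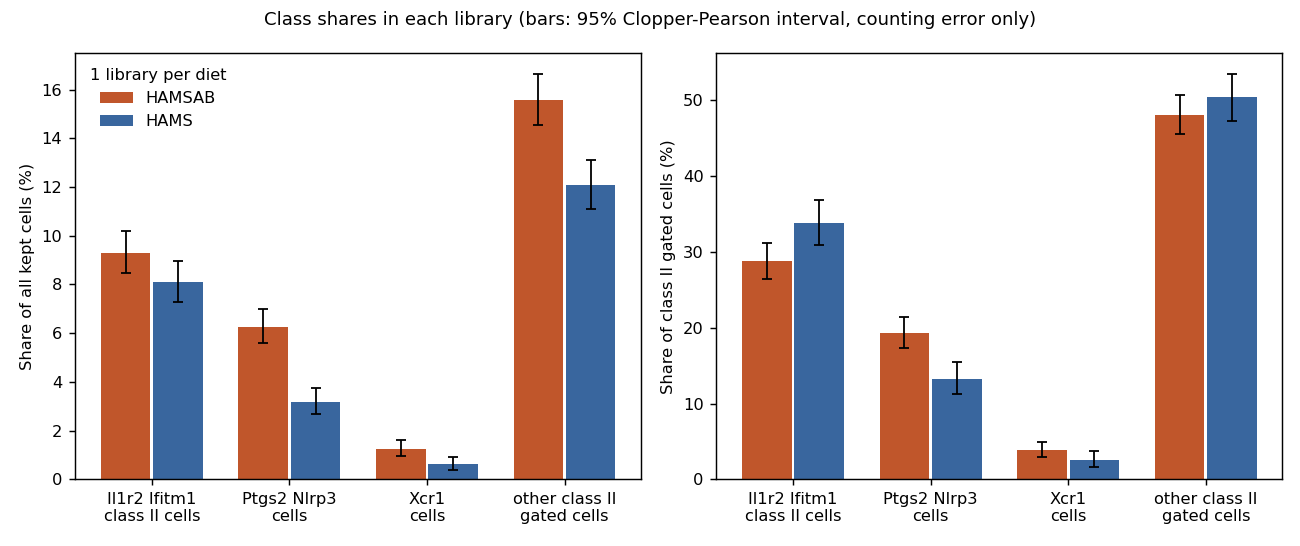
Share of 4 classes among all kept cells (left, %) and among class II gated cells (right, %) in the HAMSAB and HAMS libraries, with 95% Clopper-Pearson intervals for counting error. Members are 9.31% of kept cells in HAMSAB and 8.10% in HAMS, but 28.7% and 33.8% of gated cells.

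Members of the libraries also differed in how much RNA of the Ptgs2 Nlrp3 class they carried. The sum of those genes was 0 in 210 HAMSAB members (48.7%) and 228 HAMS members (67.3%). A further 149 HAMSAB and 69 HAMS gated cells had at least 2 UMIs of the rule genes but no higher sum than the other classes, and so were not members. With members limited to cells in which both other sums were 0, 195 HAMSAB and 208 HAMS cells remained, and they were 4.21% and 4.97% of kept cells, a ratio of 0.848. This limit uses the sum that differed between the libraries, so the ratio under it is not independent of that difference. Its part in the lower share was not tested. Of gated cells the ratio was 0.627 under this limit and 0.850 under the main rule.

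Few of the genes with enough UMIs reached a 2-fold difference between the member libraries. Of 1625 genes with at least 50 UMIs over both, 33 (2.03%) reached a 2-fold higher level in HAMSAB and 23 (1.42%) a 2-fold lower one. The counting interval lay above 0 for 222 genes (13.7%) and below 0 for 128 (7.88%), and the median log2 ratio of HAMSAB over HAMS was 0.07. TMM moved ratios by -0.08 and gave 23 higher and 31 lower genes, so the excess of higher genes depended on the scaling. Leaving Actb, mitochondrial genes and hormones out of the total gave 25 and 29. Members with at least 10 UMIs of plasma, endocrine or ductal genes add to both lists: without them 23 were higher and 12 lower. No member had over 2 acinar UMIs, so acinar RNA was not removed by this. Over the marker lists, plasma cell markers summed to 2289 CPM in HAMSAB and 74.4 CPM in HAMS members (2 of 7 at 0 in both), acinar markers to 110 and 0 CPM (1 of 7), beta cell markers to 481 and 975 CPM (1 of 8), other endocrine markers to 184 and 908 CPM (1 of 8) and ductal markers to 151 and 510 CPM (1 of 7).

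Jchain, an immunoglobulin joining chain, had the highest ranked ratio, with 249 UMIs in 6 HAMSAB members and 0 in HAMS members, and most of them lay in the cells with plasma cell RNA described above. The other genes ranked highest were spread over many cells. Hsph1, a heat shock protein of the HSP110 family, had 87 UMIs in 68 HAMSAB members (258 CPM) and 18 in 15 HAMS members (67.0 CPM), a log2 ratio of 1.95 (1.20 to 2.77). Coro2a, a coronin, had 336 CPM in HAMSAB and 134 CPM in HAMS, a ratio of 1.32 (0.77 to 1.91). Ptger4, the prostaglandin E receptor EP4, had 166 and 70.7 CPM, a ratio of 1.23 (0.46 to 2.07). Nptn (1.84), Nedd9 (1.58), Slc7a1 (1.54), Hnrnpr (1.42) and Ncf4 (1.32) had ratios of the same kind at 40 to 77 UMIs in HAMSAB and 10 to 23 in HAMS. With both other class sums at 0, Ncf4 stood at -0.15, and over the alternatives the lowest ratio of Nptn was 0.90.

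More abundant genes differed by less, with tighter intervals. Nfkbia, the inhibitor of NF-kB that NF-kB itself induces, had 620 UMIs in 253 HAMSAB members (1841 CPM) and 309 in 160 HAMS members (1150 CPM), a log2 ratio of 0.68 (0.48 to 0.88). Egr3, an immediate early transcription factor, had 1333 CPM in HAMSAB and 774 CPM in HAMS, a ratio of 0.78 (0.54 to 1.03). Rasgef1b, a Ras exchange factor that Toll-like receptor signals induce in macrophages, had 1235 and 707 CPM, a ratio of 0.80 (0.55 to 1.06). Among cells with at least 500 genes the ratio of Rasgef1b was 0.26. The long noncoding RNA Malat1 had 13997 and 10233 CPM, a ratio of 0.45 (0.38 to 0.52).

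Genes lower in HAMSAB members included the receptor genes Il21r and Ptafr, while the receptor genes Ptger4, P2ry10 and Ifngr1 were higher. Il21r, the interleukin 21 receptor, had 70 UMIs in 64 HAMSAB members (208 CPM) and 116 in 100 HAMS members (432 CPM), a log2 ratio of -1.05 (-1.50 to -0.61). Ptafr, the receptor of platelet-activating factor, had 392 CPM in HAMSAB and 744 CPM in HAMS, a ratio of -0.93 (-1.25 to -0.60). Stat5a, which carries growth factor signals to the nucleus, had 128 and 272 CPM, a ratio of -1.09 (-1.67 to -0.53). Lmna, the nuclear lamin A gene, had the lowest ratio of the named genes at -1.74 (-2.61 to -0.93), from 18 UMIs in HAMSAB and 48 in HAMS. Bcl2l1, the survival protein Bcl-xL, had 19 and 42 UMIs, a ratio of -1.47 (-2.33 to -0.66). Lzts1 (-1.50), Smim10l1 (-1.11), Relch (-1.02), Ccdc6 (-0.97), Foxn3 (-0.81), Wapl (-0.74) and Nup98 (-0.65) completed the 12 lowest, each with an interval below 0. Among cells with at least 500 genes Foxn3 stood at 0.10.

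**Figure D4:**
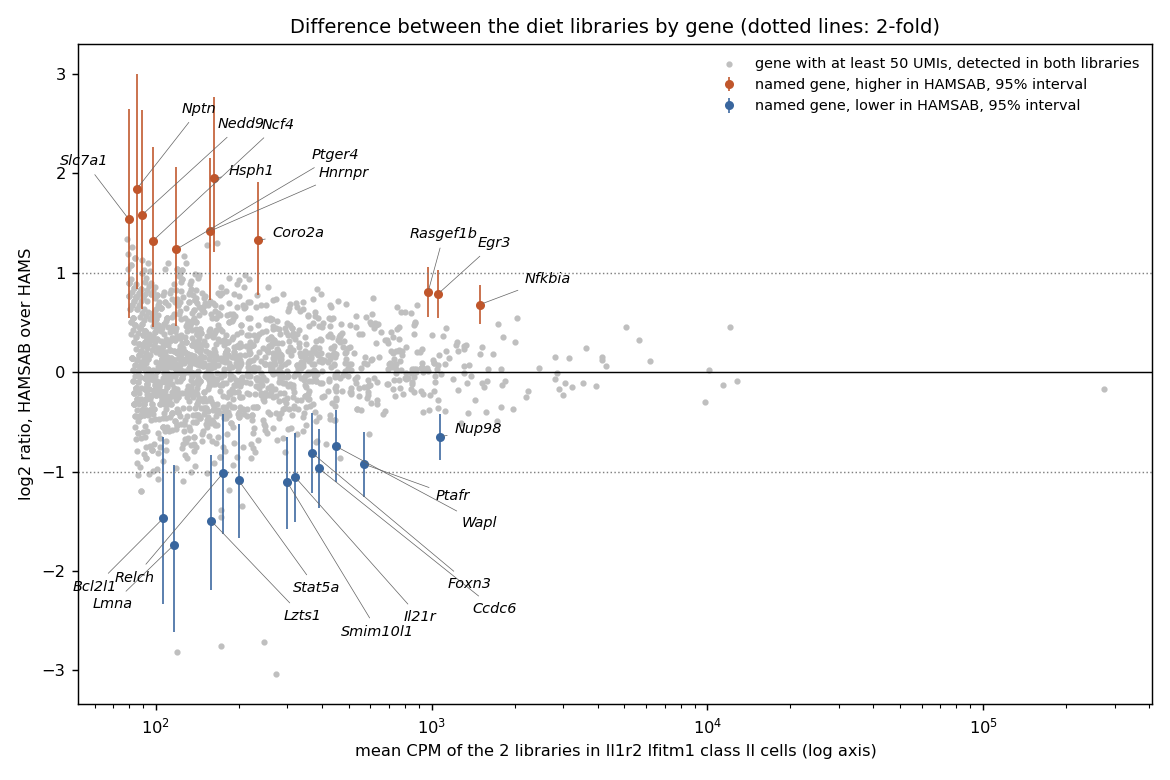
Log2 ratio of HAMSAB over HAMS (vertical axis) against the mean CPM of both libraries (horizontal axis, log scale) in members, for genes with at least 50 UMIs that were seen in both libraries, with named genes in colour and their 95% intervals. Hsph1 stands at 1.95 and Lmna at -1.74, while the abundant genes Nfkbia (0.68) and Nup98 (-0.65) have short intervals.

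Ptgs2 Nlrp3 cells of the same libraries are other cells, and the ratios of named genes in them were near those of members for some genes and not for others. For Nfkbia the ratio was 0.68 in members and 0.61 (0.39 to 0.84) in Ptgs2 Nlrp3 cells, for Hsph1 1.95 and 1.51 (0.48 to 2.71), and for Ptger4 1.23 and 1.51 (0.42 to 2.80). On the lower side, Il21r had -1.05 in members and -0.94 (-1.52 to -0.36) in Ptgs2 Nlrp3 cells, Ptafr -0.93 and -0.68 (-1.05 to -0.32), Nup98 -0.65 and -0.67 (-0.98 to -0.36) and Ccdc6 -0.97 and -1.19 (-1.79 to -0.60). Lmna was -1.74 in members and 0.11 (-0.97 to 1.28) in Ptgs2 Nlrp3 cells, Lzts1 -1.50 and 0.51 (-0.89 to 2.13) and Foxn3 -0.81 and -0.28 (-0.89 to 0.34). Nptn was 1.84 in members and 0.01 (-0.88 to 0.97) in Ptgs2 Nlrp3 cells, Nedd9 1.58 and 0.34 (-1.09 to 1.98), and Hnrnpr 1.42 and 0.23 (-0.67 to 1.20). The differences between the classes were not tested, and both classes come from the same 2 libraries.

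Since the Ptgs2 Nlrp3 sum differed between the libraries, the diet ratios were also taken in members without and with UMIs of those genes. Members with them were deeper, with a median of 734 UMIs in HAMSAB and 780 in HAMS, against 638 and 707.5 UMIs in members without them. In members without them Nfkbia was at 1542 CPM in HAMSAB and 980 CPM in HAMS, a log2 ratio of 0.65 (0.36 to 0.94), and in members with them the ratio was 0.50 (0.22 to 0.80). Egr3 had ratios of 0.83 (0.50 to 1.17) without and 0.65 (0.28 to 1.03) with them, Rasgef1b 0.74 (0.38 to 1.09) and 0.74 (0.37 to 1.14), and Hsph1 2.18 (1.24 to 3.23) and 1.74 (0.50 to 3.27). Klf4 had 0.57 (-0.18 to 1.33) without and 1.33 (0.42 to 2.36) with them, and Ptger4 0.92 (-0.10 to 1.99) and 1.73 (0.36 to 3.44). The differences between these subsets were not tested. Il21r had -1.38 (-2.05 to -0.75) without and -0.60 (-1.30 to 0.11) with them. Il1b, which encodes interleukin 1 beta, had -0.40 (-0.78 to -0.03) without and 0.06 (-0.26 to 0.38) with them, while over all members it was 0.04 (-0.19 to 0.27).

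**Figure D5:**
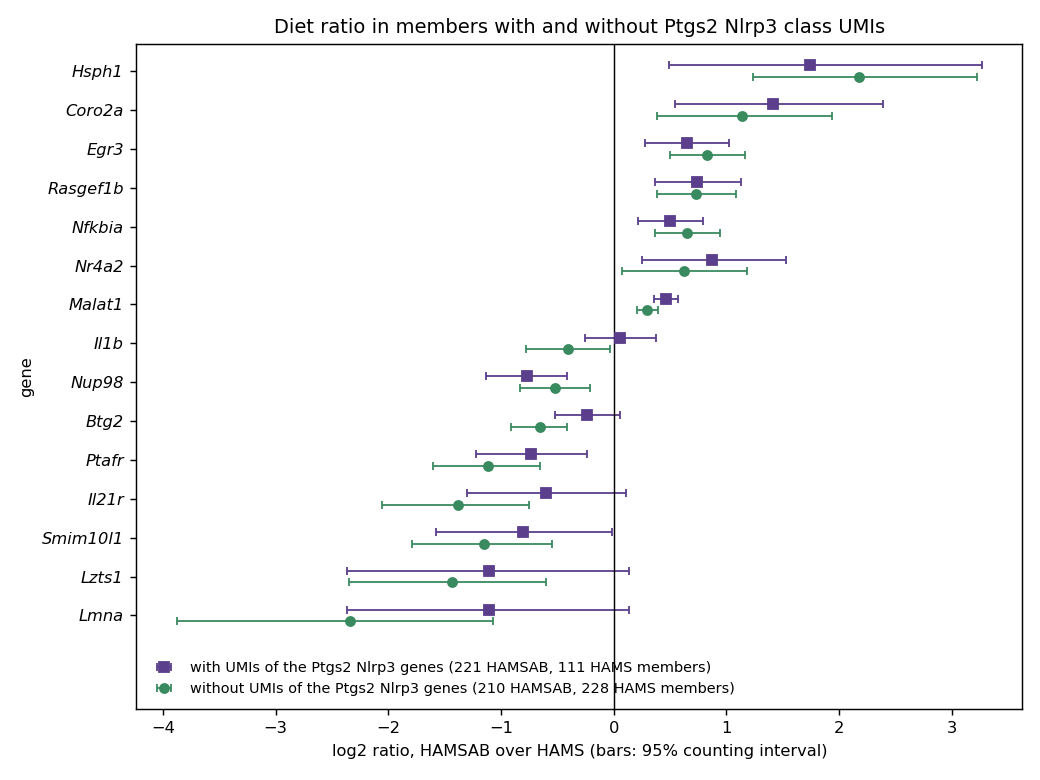
Log2 ratio of HAMSAB over HAMS (horizontal axis, 95% counting intervals) for 15 genes outside the rule in members with (squares, 221 HAMSAB and 111 HAMS cells) and without (circles, 210 and 228 cells) UMIs of the Ptgs2 Nlrp3 class genes. Nfkbia stands at 0.50 with and 0.65 without them, and Il1b at 0.06 with and -0.40 without them.

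The gene lists are described by their genes with at least 20 UMIs over both member libraries, which are called measured, and a gene is called above or below 0 where its counting interval is. Over all 3401 such genes the interval lay above 0 for 9.26% and below 0 for 5.35%, and the median log2 ratio was 0.09. The immediate early and dissociation stress genes stood apart in both directions, with 15 of 29 measured above 0, 6 below 0 and a median of 0.39 (12 and 7 under TMM). Nr4a2 (0.79, 0.39 to 1.20), Klf4 (0.94, 0.39 to 1.51), Dusp1 (0.50, 0.19 to 0.81) and Fosb (0.43, 0.16 to 0.71) were above 0. Egr1 (-0.80, -1.26 to -0.35), Btg2 (-0.49, -0.67 to -0.31), Zfp36 (-0.45, -0.84 to -0.07), Fos (-0.37, -0.70 to -0.05) and Klf6 (-0.42, -0.71 to -0.13) were below 0. Genes that tissue dissociation is known to induce therefore lay on both sides. In Ptgs2 Nlrp3 cells some of the lower genes had ratios above 0, Egr1 at 1.31 (0.85 to 1.80), Klf6 at 0.67 (0.32 to 1.04) and Zfp36 at 0.49 (0.04 to 0.96), and these differences between the classes were not tested. Of the heat shock genes, Hspd1 (1.16, 0.42 to 1.96), Hspe1 (1.15, 0.24 to 2.15), Hsp90aa1 (0.67, 0.42 to 0.94) and Hspa8 (0.45, 0.18 to 0.73) were above 0 beside Hsph1. The stress-induced Hspa1a had 2 and 2 UMIs in HAMSAB and HAMS members, Hspa1b 3 and 3, and Dnajb1 16 and 16.

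Of 12 proliferation genes measured, 7 were above 0 and 0 below, with a median log2 ratio of 0.70. The other 5 had intervals across 0, among them the cyclin gene Ccnd3 (-0.53, -1.25 to 0.18) and the helicase subunit gene Mcm3 (-0.46, -1.86 to 0.91). Top2a, a topoisomerase of dividing cells, had 59 UMIs in HAMSAB and 22 in HAMS members, a ratio of 1.10 (0.37 to 1.87), Mki67 58 and 25, a ratio of 0.89 (0.19 to 1.63), and the replication clamp Pcna 42 and 18, a ratio of 0.90 (0.07 to 1.78). These UMIs lay in few cells: 25 of 431 HAMSAB members (5.80%, 3.79 to 8.44%) and 12 of 339 HAMS members (3.54%, 1.84 to 6.10%) had at least 2 UMIs of Mki67 and Top2a. They held 89 of the 117 and 30 of the 47 UMIs of both genes and were deep, with a median of 1448 UMIs in HAMSAB and 1360 in HAMS. The intervals of the 2 shares overlap.

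Antigen presentation differed little between the diets. H2-Aa had 4374 CPM in HAMSAB and 3941 CPM in HAMS members, a log2 ratio of 0.15 (0.04 to 0.27), the invariant chain Cd74 12375 and 13166 CPM, a ratio of -0.09 (-0.15 to -0.02), and the protease Ctss, which cuts the invariant chain, 1342 and 1113 CPM, a ratio of 0.27 (0.06 to 0.49). Of 13 class II genes measured 4 were above 0 and 1 below 0, and under TMM 0 and 1. The class I peptide editor Tapbp had a ratio of 0.63 (0.21 to 1.06), with 2 of 17 class I genes above and 0 below 0. Of 7 costimulation genes 2 were above 0, Icosl, the ligand of ICOS (0.66, 0.12 to 1.22), and Cd83, a maturation marker (0.60, 0.20 to 1.01), and 0 below. Cd86, a ligand of CD28, had 232 and 268 CPM, a ratio of -0.21 (-0.69 to 0.27).

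In the interleukin 1 axis, 3 of 8 measured genes were above 0 and 1 below. Il1b was seen in 129 HAMSAB members (29.9%) and 108 HAMS members (31.9%), at 1057 and 1031 CPM. Il1r2 had 704 and 688 CPM, a log2 ratio of 0.03 (-0.25 to 0.32), while the signalling receptor Il1r1 had 4 and 4 UMIs. Il1rn was lower at 74.2 CPM in HAMSAB and 138 CPM in HAMS, a ratio of -0.89 (-1.68 to -0.12). Pycard, the inflammasome adaptor, had 17 and 3 UMIs, a ratio of 2.18 (0.39 to 4.59), the kinase Irak1 41 and 17, a ratio of 0.94 (0.10 to 1.85), and Nlrp3, which the rule limits, 60 and 27, a ratio of 0.83 (0.15 to 1.54). Of 20 genes of NF-kB and Tnf, 3 were above 0 and 2 below. Nfkbiz had 490 and 275 CPM, a ratio of 0.83 (0.43 to 1.25), and Nfkb2 53.4 and 112 CPM, a ratio of -1.06 (-1.99 to -0.17).

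Chemokines and migration receptors showed single differences. Ccr7 had 143 UMIs in HAMSAB and 70 in HAMS members (425 and 260 CPM), a log2 ratio of 0.70 (0.28 to 1.14), and P2ry10, a lysophospholipid receptor, 243 and 141 CPM, a ratio of 0.78 (0.21 to 1.38). Ccr7 was higher in HAMSAB in the members with each rule gene, at 555 and 273 CPM with Il1r2 but 278 and 252 CPM with Kit. Gated cells outside the members had 103 CPM in HAMSAB and 134 CPM in HAMS at a sum of 0, and 196 and 219 CPM at a sum of 1. The differences between these subsets were not tested. Cxcl9, an interferon-induced attractant of T cells, had 704 and 502 CPM, a ratio of 0.49 (0.18 to 0.80), while Cxcl10 (220 and 290 CPM) and Cxcl16 (677 and 800 CPM) had intervals across 0. Of 5 chemokines 3 were above 0 and 0 below (3 and 2 under TMM), and of 11 receptors 3 and 0.

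The transcription factors and growth factor receptors held differences both ways. Irf8, which cDC1 need, had 140 CPM in HAMSAB and 253 CPM in HAMS members, a log2 ratio of -0.86 (-1.43 to -0.30), and Irf5, which acts downstream of Toll-like receptors, 202 and 294 CPM, a ratio of -0.54 (-1.03 to -0.06). Of 31 transcription factors 4 were above and 3 below 0. Of 18 growth factor receptors and kinases 2 were above and 2 below, Ifngr1, a chain of the interferon gamma receptor, at 0.48 (0.14 to 0.82), and Il7r at 1.02 (0.05 to 2.07). With the rule raised to 3 UMIs Il7r had a ratio of -0.0039. Ifitm3 was lower at 214 and 316 CPM, a ratio of -0.57 (-1.04 to -0.10), while its relative Ifitm1 had 285 and 294 CPM, a ratio of -0.04 (-0.49 to 0.40). Of 25 interferon response genes 3 were above 0 and 1 below, the guanylate-binding protein gene Gbp4 among the first with 30 UMIs in HAMSAB and 6 in HAMS members and a log2 interval of 0.71 to 3.55.

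The remaining lists held few such genes. Of 26 actin and motility genes 5 were above 0 and 3 below. Of 13 endolysosomal protease and cystatin genes 3 were above 0 and 0 below, of 12 glycolysis genes 2 and 1, of 11 eicosanoid and lipid genes 2 and 1 (1 of the 2, Ptgs2, is limited by the rule), of 20 nuclear respiratory chain genes 2 and 0 with a median of 0.38, of 12 checkpoint genes 1 and 0 (the 1 is Lilrb4a, which the rule limits), and of 13 Bcl2 family genes 0 and 1. For S100 and annexins (8 genes measured), Fc receptors and phagocytosis (11), antioxidants (10) and dendritic cell cytokines (4), 0 genes lay above or below 0. The same held for pattern recognition genes and C-type lectins, where the 3 genes measured were Mgl2, Ifih1 and Ddx58.

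Few molecules were counted for most histone deacetylase and short-chain fatty acid receptor genes, a list that also held transporters and other genes. Of 20 genes 4 reached 20 UMIs, and 0 had an interval above or below 0. Ahr had the most UMIs, 118 in HAMSAB and 90 in HAMS members, a log2 ratio of 0.07 (-0.34 to 0.48). Ffar2 had a log2 ratio of 0.30 (-0.45 to 1.07) and Hdac1, a histone deacetylase, 45 and 37 UMIs, a ratio of -0.04 (-0.70 to 0.62). The receptor genes Ffar3 (0 and 0 UMIs) and Hcar2 (2 and 0), and the transporters Slc5a8 (0 and 0) and Slc16a1 (1 and 0), were at or near 0, so differences were not detectable at this depth. The counting interval of Ffar2 holds a 2-fold higher level in HAMSAB but not a 2-fold lower one. It covers no spread between mice or libraries, so it cannot exclude a diet difference of either size.

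The authors' deposited table for conventional dendritic cells lists 58 genes, 35 higher and 23 lower in HAMSAB, of which 6 higher and 6 lower have an adjusted p under 0.05. In the authors' deposited table Rasgef1b had a log2 fold change of 0.79 and Egr3 of 0.68, against 0.80 and 0.78 in members. Il21r had -0.65 and Ptafr -0.55 in the authors' deposited table, against -1.05 and -0.93 in members. That table comes from the same 2 libraries and from cells whose selection is not given in the sources used here, and its p-values are over cells, so it is not independent of the member values.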

How the data were processed

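Pancreatic islet cells of NOD mice were measured with the Chromium Single Cell 3' kit, 1 library per diet, per the labels' protocols. The deposited matrices hold raw UMI counts of 32285 genes for 5022 HAMSAB and 4352 HAMS barcodes, written by Cell Ranger 5.0.0 per the file headers. Seurat and the genome builds mm10 and GRCm38 are named in the submitters' processing notes, without their roles. The authors' deposited table for conventional dendritic cells gives log2 fold changes and p-values from a test over cells whose kind is not stated.

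Cells were gated and chosen as described in the report, with the median depth of kept cells at 705 UMIs in HAMSAB and 704 in HAMS. Total counts were 4254040 in HAMSAB and 3599756 in HAMS. Counts were summed over the cells of a class in each library and divided by the class total (CPM). Log2 ratios of HAMSAB over HAMS have exact conditional binomial 95% intervals, levels Poisson intervals and shares Clopper-Pearson intervals, all covering counting error only. Genes needed at least 50 UMIs over both libraries (20 for gene lists). A class at 0 was taken at a floor of 3 counts. For shares of cells with a UMI, cells were thinned to 500 UMIs and shallower cells left out. With 1 library per diet no p-value was computed. Named genes of the diet comparison are the 12 highest and 12 lowest by the interval bound nearest 0, leaving out mitochondrial, ribosomal, predicted and receptor segment genes and likely free RNA. Those against other classes come from the 15 largest differences each way, those of lists are up to 3 highest and 3 lowest, and the 15 most abundant genes and the marker lists add to them. Other genes (Malat1, Egr1 in Ptgs2 Nlrp3 cells, the subsets by rule gene and by class sum, and list members beyond 3) were chosen after their values were seen. The members and lists were chosen with earlier results of these data known. Alternatives changed the gates, the rule, the scaling (TMM from edgeR 4.0.16 in R 4.3.3) and the filter. The ratio code was tested on simulated data. Python 3.11.15, numpy 2.4.6, scipy 1.17.1, pandas 2.3.3 and matplotlib 3.10.9 were used. Doublets were handled by the gates alone.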

Additional observations from a re-analysis of the deposited data

Results flagged for a closer look

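Bcl2l1, the Bcl-xL gene, had a log2 ratio of HAMSAB over HAMS of -1.47 in Il1r2 Ifitm1 class II cells and of 2.29 in Xcr1 cells, where 19 UMIs were counted in HAMSAB and 2 in HAMS. Nfkb2, an NF-kB subunit gene, had -1.06 in Il1r2 Ifitm1 class II cells and 1.09 in Ptgs2 Nlrp3 cells. Both genes lay past 2-fold in opposite directions in the classes compared. The differences between the classes were not tested.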

How the results depend on the processing

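No paired analysis was possible because each diet has 1 library. Of 80 values of the 6 comparisons under the alternatives, 62 stayed within 1.5 times the reported count or within the interval of the share. With both other class sums at 0, the share ratio was 0.848 of kept cells and 0.627 of gated cells, 13 genes were at least 2-fold higher in HAMSAB, and 123 were higher than in Xcr1 cells. With cells of at least 500 genes, 57 genes were higher than in Xcr1 cells and 10 than in Ptgs2 Nlrp3 cells. With cells thinned to 500 UMIs before the rule, 17 genes were higher and 10 lower in HAMSAB, 13 were higher than in Xcr1 cells and 14 than in Ptgs2 Nlrp3 cells. With hormones under 1%, 15 genes were lower in HAMSAB, and 12 without the members that carried RNA of other lineages, a setting chosen after seeing the data. A filter of 20 UMIs gave 187 higher and 112 lower genes in HAMSAB and 102 higher than in Ptgs2 Nlrp3 cells, and 1 UMI in each library gave 1102 and 1131. Leaving out cells, thinning them or changing the filter also changes how many genes are measured, so these counts are not shares of the same total. TMM gave 134 genes higher than in Xcr1 cells. Of 2359 values of 159 named genes, 8 that had been past 2-fold changed sign. With at least 500 genes Tnf had -0.56, Ccl4 -0.56 and Gsdmd 0.021, and with thinned cells Tnf had -0.84 and Gsdmd 0.16. With both other sums at 0 Ncf4 had -0.15 and Itgb7 -1.42, and with a rule sum of at least 3 Il7r had -0.0039. The causes were not tested. Depth limits the rarer genes: the interval of Hnrnpr, with 77 UMIs in HAMSAB and 23 in HAMS members, ran from 0.73 to 2.16.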
